A study of Mus musculus with 4 samples.

Results

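Tnf and Il6 are 2 of the 397 genes read in every cell of an immune gene panel, and they were followed here through 13820 brain cells of 4 mice. Tnf encodes tumor necrosis factor, a cytokine made as a membrane protein and shed by a protease, and Il6 encodes interleukin-6, a secreted cytokine that signals through a receptor shared by a family of cytokines. Microglia, the resident macrophages of the brain, can make both when toll-like receptors or other danger sensors are engaged, and signaling then runs through NF-kappaB and the AP-1 factors. Around amyloid plaques, microglia can take on a disease-associated state (DAM) in which Apoe, a lipid carrier, and Cst7, a cysteine protease inhibitor, are high. Fosb and Egr1 belong to the immediate early genes, transcription factors that are switched on within minutes of a stimulus, and tissue handling is one stimulus known to do so.

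The mice were male, 9 months old and all carried the 5XFAD transgenes, which drive human amyloid precursor protein and presenilin 1 with familial Alzheimer mutations from the neuronal Thy1 promoter. In 2 of them the Abi3 locus was deleted (Abi3-/-) and in 2 it was intact (Abi3+/+), with 1 library per mouse from the right hemisphere, cerebellum and olfactory bulb removed. Since no mouse lacked 5XFAD, nothing here compares amyloid with no amyloid. The brains were perfused, minced on ice, incubated cold with Accutase and depleted of myelin, with no sort for a cell type. The mouse is the replicate throughout. The panel counts used here give no reading of Abi3, so the genotype labels were not checked against its reads.

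The tables held 21172 cells, of which those with at least 40 genes and at most 59300 reads were kept: 2321 and 4499 in Abi3-/- mice 1 and 2, and 3796 and 3204 in Abi3+/+ mice 1 and 2. Median reads per kept cell ranged from 19647.5 to 24283. Each pair of libraries shared 17 to 42 cell labels, of which 6 to 18 were kept, and no shared label held identical counts. Clusters were built without Tnf, Il6, Ccl3 and Ccl4, so the values of these 4 genes did not shape them. Microglia-like cells numbered 12710 (1996, 4186, 3578 and 2950 in the same order of mice), T cell-like cells 322 and macrophage or monocyte-like cells 174. In microglia-like cells 12 of 13 microglial markers had a read in at least 10% of cells, and none of the 11 macrophage markers or 16 T cell markers did. The T cell-like cells passed the same level for 16 of 16 T cell markers. In the macrophage or monocyte-like cells 9 of 11 macrophage markers passed, and so did 10 of the 13 microglial markers, several of which macrophages also express. On average a microglial marker was read in 48.9% of these cells and a macrophage marker in 32.8%. Typing each cell from marker reads alone named 65 of the 174 macrophage or monocyte, left 86 unnamed and called 18 microglia.

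Tnf lies on chromosome 17 at chr17:35199367-35202007 of mm10 on the minus strand, and Il6 on chromosome 5 at chr5:30013114-30019975 on the plus strand (RefSeq positions, GRCm38.p6). The 250 bases before each annotated start are shown as a description, from RefSeq on the same build, 5′ to 3′ on the gene's own strand. They lie at chr17:35202008-35202257 for Tnf and chr5:30012864-30013113 for Il6. Capitals mark matches to the motifs searched on both strands, which were the kappaB consensus, AP-1 (TGANTCA), the cAMP response element (TGACGTCA) and EGR1 (GCGNGGGCG).
Tnf: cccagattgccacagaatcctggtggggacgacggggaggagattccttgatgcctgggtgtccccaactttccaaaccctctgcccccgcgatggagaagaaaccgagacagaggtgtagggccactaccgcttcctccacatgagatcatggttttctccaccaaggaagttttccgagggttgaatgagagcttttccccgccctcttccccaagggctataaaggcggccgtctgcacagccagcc
Il6: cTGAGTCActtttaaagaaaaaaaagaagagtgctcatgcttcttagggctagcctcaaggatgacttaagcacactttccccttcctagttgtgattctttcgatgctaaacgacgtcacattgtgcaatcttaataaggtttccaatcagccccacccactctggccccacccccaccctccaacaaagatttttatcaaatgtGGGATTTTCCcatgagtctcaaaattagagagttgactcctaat

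The Il6 window held 1 kappaB consensus match, GGGATTTTCC, 44 to 35 bases before the start, and 1 AP-1 match, TGAGTCA, 249 to 243 bases before it. The 2 matches do not overlap. None of the 4 motifs matched in the Tnf window, which says only that these letters are not in these 250 bases. Of 32841 mouse promoter windows of the same length, 3.90% held the kappaB consensus, 6.75% the AP-1 letters, 1.55% the cAMP response element and 4.70% the EGR1 letters. Among the 351 promoters of panel genes the shares were 8.83%, 8.55%, 1.14% and 3.99% in the same order. A match is a description of the letters and was not tested as a site.

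Both cytokines were read mainly in microglia. A read of Tnf was found in 16.5% and 21.7% of microglia-like cells of the Abi3-/- mice 1 and 2, and in 20.8% and 24.8% of those of the Abi3+/+ mice 1 and 2. A read of Il6 was found in 10.5%, 12.4%, 9.36% and 10.6% in the same order. Tnf was thus the more often detected of the pair in each mouse, although the shares of the 2 genes also depend on their primers and cannot be set against each other as abundance. Per 10000 reads, microglia held 8.52, 14.0, 13.8 and 21.5 reads of Tnf and 2.37, 2.72, 2.48 and 2.72 reads of Il6. The Tnf level therefore ranged widely between mice of 1 genotype, while the Il6 level lay within a narrow band.

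**Figure D1:**
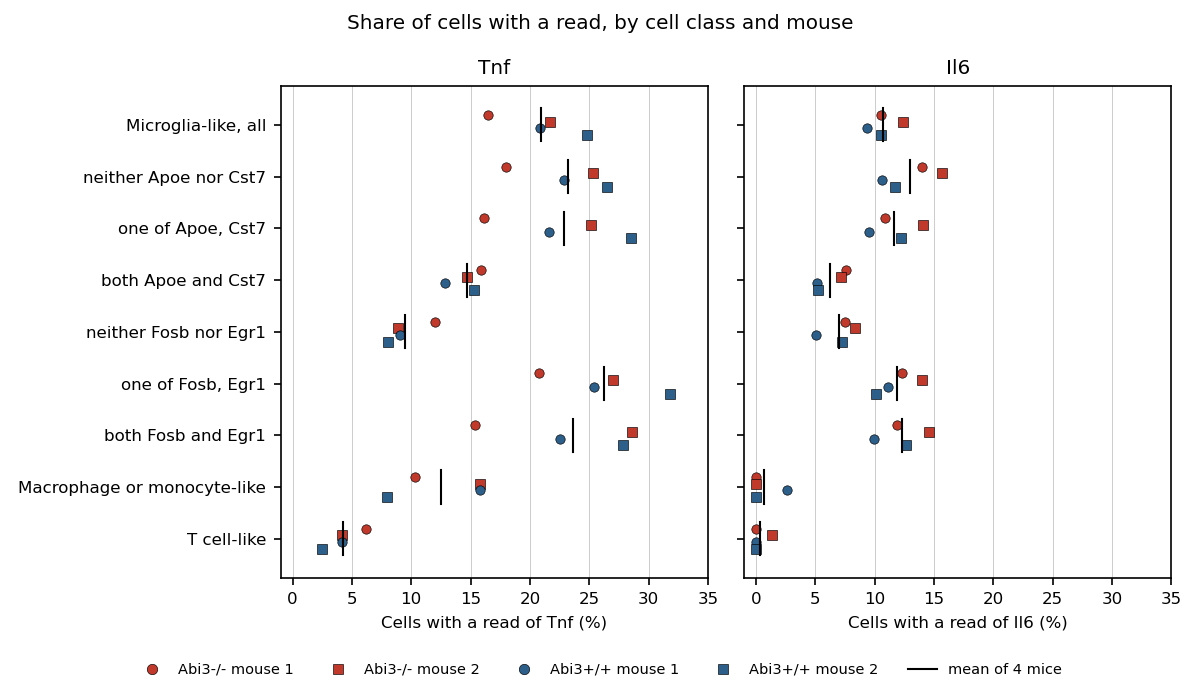
Share of cells with a read of Tnf (left) and of Il6 (right), in percent, for microglia-like cells, for microglia divided by reads of Apoe and Cst7 or of Fosb and Egr1, and for macrophage or monocyte-like and T cell-like cells. Each point is 1 mouse and the bar is the mean of 4 mice. Il6 lies at 0% to 2.63% in the macrophage and T cell classes, and microglia with both Apoe and Cst7 lie below those with neither in all 4 mice for both genes.

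The number of reads in a cell that had any differed in shape between the 2 genes. Among microglia with a read of Tnf the median was 88, 78, 81 and 117 reads in Abi3-/- mice 1 and 2 and Abi3+/+ mice 1 and 2, and the highest cell held 3102, 2601, 1591 and 4062 reads. More than 500 Tnf reads were found in 8, 43, 34 and 67 of these cells. Among microglia with a read of Il6 the median was 55, 46, 57 and 63 reads, the highest cell held 262, 219, 215 and 296, and no cell exceeded 500. The 10% of positive cells with the most reads carried 38.5% to 41.1% of all microglial Tnf reads in the 4 mice, against 21.4% to 24.8% of Il6 reads. Tnf therefore had a tail of cells with many reads that Il6 did not show. Fewest reads in a positive cell were 10 to 13 for Tnf and 9 to 11 for Il6 in the 4 libraries, so a read minimum of 10 left the shares nearly as they were.

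**Figure D2:**
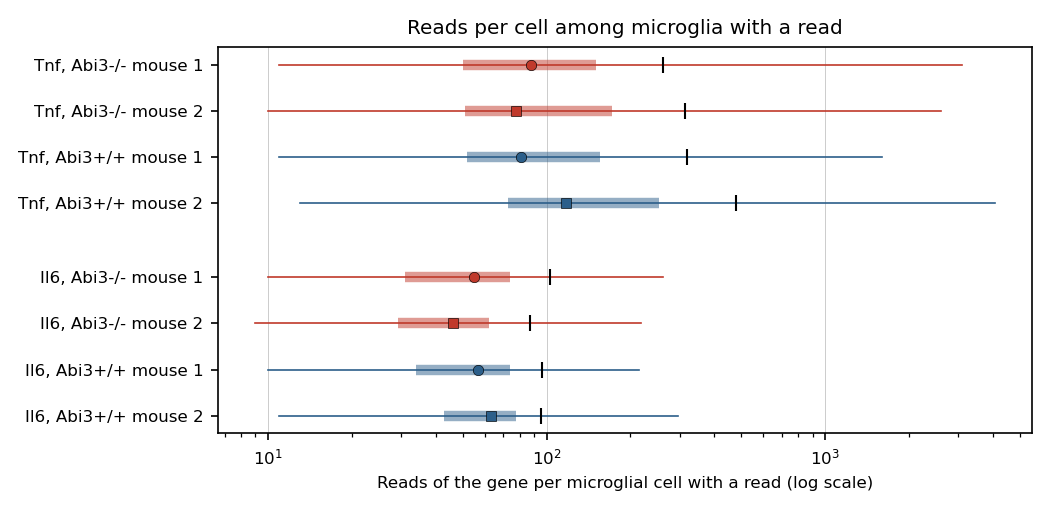
Reads per microglial cell among cells with at least 1 read of Tnf (upper 4 lines) or Il6 (lower 4 lines), on a log axis. The point is the median, the thick band the interquartile range, the tick the 90th percentile and the thin line the range in each mouse. The Tnf lines reach 1591 to 4062 reads and the Il6 lines 215 to 296.

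In the macrophage or monocyte-like and T cell-like classes Tnf was less frequent than in microglia, and Il6 was read in 1 cell of each of the macrophage and T cell classes. Macrophage or monocyte-like cells were not divided into border macrophages and cells of monocyte origin. In them Tnf was read in 10.3% of 29, 15.8% of 57, 15.8% of 38 and 8.0% of 50 cells of Abi3-/- mice 1 and 2 and Abi3+/+ mice 1 and 2. Each mouse lay below its own microglia. Summed over each mouse and class, Tnf reads fell by 2.54 on the log2 scale (SE 0.45, adjusted p = 0.00607 by edgeR's quasi-likelihood test with mouse as block, n = 4). Of the 329 genes tested 23.1% were lower and 19.1% higher in these cells at the same threshold, and the median gene had a difference of -0.79. With library size alone, without TMM, the split of 63 higher and 76 lower genes became 77 and 58. The Tnf call held without each mouse in turn but was lost when types were taken from marker reads, which keeps 65 of the 174 cells in this class (-3.40, adjusted p = 0.187, edgeR). These cells were read more deeply than microglia, with medians of 34335 and 21225 reads per cell. Il6 was read in 1 of the 174 macrophage or monocyte-like cells, which is 0.575% with an exact 95% binomial interval of 0.0145% to 3.16%, against 1375 of 12710 microglia, or 10.8%. The edgeR test gave an adjusted p of 0.0314 for that difference, but the test lost its call when any mouse was left out (0.0521 to 0.111). Of the 5 gene lists described further on, 8 of 14 genes of the toll-like receptor arm and 5 of 10 immediate early genes were lower and none higher, with 3 lower and 1 higher of 15 cytokines and chemokines, 1 and 1 of 7 TNF superfamily ligands and 2 and 0 of 13 receptors and signal carriers. A binomial interval covers counting error only, since cells of a mouse are not independent.

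T cell-like cells had a read of Tnf in 6.19% of 97, 4.17% of 72, 4.17% of 72 and 2.47% of 81 cells in the same order of mice. Tnf reads were lower than in microglia by 3.39 on the log2 scale (SE 0.58, adjusted p = 0.00900, edgeR, n = 4 mice), where 26.3% of 354 genes were lower and 31.6% higher. With library size alone the split of 112 higher and 93 lower genes became 128 and 67. Tnf was lower in each of the 4 mice, and its call held without each mouse in turn. The same T cells had a read of C1qa, a complement gene that T cells lack, in 28 of 322 cells (8.70%, interval 5.86% to 12.3%), and the Tnf share of 4.35% (14 cells, interval 2.40% to 7.19%) lies below it. C1qa was read in 99.8% of microglia. No T cell expression of Tnf is read from this share, and the part of free RNA in it was not tested. Among T cells with a read of Cd8a or Cd8b1, the share with Tnf was 4.52% (10 of 221 cells), and among the others 3.96% (4 of 101 cells). Il6 was read in 1 of 322 T cells (0.311%, interval 0.00786% to 1.72%). The edgeR adjusted p against microglia was 0.0182, and 0.0444 to 0.0650 with a mouse left out, above the threshold of 0.05 without Abi3-/- mouse 1, Abi3-/- mouse 2 or Abi3+/+ mouse 1. In T cells 5 of 8 TNF superfamily ligands, a family that lymphocytes use widely, were higher and 1 lower, while 8 of 16 cytokines and chemokines were lower and 2 higher. The 2 higher ones, Lta and Ltb, stand in both lists and are also counted among the 5 ligands. The toll-like receptor arm had 6 lower and 1 higher of 13, the immediate early genes 4 and 1 of 10, and the receptors and signal carriers 4 and 1 of 13.

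Within microglia, the clusters spread the 2 genes far apart. Tnf was read in 35.1% of the 1775 cells of cluster 2 (24.6% to 42.3% over mice), in 29.8% of the 1730 cells of cluster 3 and in 32.4% of the 108 cells of cluster 13. At the other end lay cluster 6, with 2.42% of 1114 cells (1.75% to 3.72%). Il6 was also most frequent in cluster 2, with 17.6% (11.9% to 20.5%), and least frequent in cluster 6, with 3.23% (2.20% to 3.72%). Clusters 4 and 6 both had a read of Apoe in over 9 in 10 cells, but Tnf was read in 22.8% of cluster 4 (20.1% to 25.3%). Il6 was read in 7.43% of cluster 4 (5.90% to 8.20%). Cluster 4 had a read of Cx3cr1, the fractalkine receptor of resting microglia, in 84.0% of its cells and cluster 6 in 53.8%. The 2 clusters also differed in Egr1, with a read in 53.5% and 8.35% of cells, in Fosb, with 34.5% and 3.50%, and in depth, with medians of 36795 and 22111 reads per cell. These clusters were formed on the other panel genes, and their shares of Tnf and Il6 are given as a description.

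Microglia with reads of both Apoe and Cst7 had fewer cells with either cytokine than microglia with neither gene. For Tnf, the share in cells with both was 15.9%, 14.7%, 12.8% and 15.3% in Abi3-/- mice 1 and 2 and Abi3+/+ mice 1 and 2, and in cells with neither 17.9%, 25.3%, 22.9% and 26.5%. For Il6, it was 7.57%, 7.16%, 5.14% and 5.20% with both, and 14.0%, 15.7%, 10.6% and 11.8% with neither. The 2 sets of 4 shares did not overlap for either gene, which was so in this direction for 19.2% of the 203 genes compared, and the direction was the same in all 4 mice for 36.9% of them. An exact sign-flip permutation test over 4 mice gave p = 0.125 for each gene, the smallest p that 4 mice allow. The mean difference was -8.50 percentage points for Tnf and -6.73 for Il6, and over all cells, with no limits on genes or reads, it was -5.03 and -3.21. Microglia with only 1 of the 2 genes had 22.9% ± 5.3 with Tnf and 11.7% ± 2.0 with Il6 (SD, n = 4), which overlaps the cells with neither (23.2% ± 3.8 and 13% ± 2.3).

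The levels moved the same way. Per 10000 reads, cells with both Apoe and Cst7 held 6.82, 6.52, 5.01 and 8.63 reads of Tnf, and cells with neither 11.1, 20.6, 17.9 and 25.8. For Il6 the levels were 1.47, 1.02, 0.925 and 1.08 with both and 3.33, 4.5, 3.16 and 3.46 with neither. In the test across genes Tnf fell by 0.94 on the log2 scale (SE 0.16, adjusted p = 0.00355) and Il6 fell by 1.19 (SE 0.18, adjusted p = 0.00272) by edgeR with mouse as block. Of the 305 genes tested, 21.3% were lower and 23.0% higher, and the median gene had a difference of -0.12. Scaled by library size alone, without TMM, the split moved from 70 higher and 65 lower genes to 43 and 125, the median gene moved to -0.61, Tnf to -1.45 and Il6 to -1.70. Both calls held without each mouse in turn, while the number of genes called went from 135 to 88 without Abi3+/+ mouse 2. Cells with both genes were read more deeply, with a median of 29364.5 reads against 18693, and after each cell was thinned to 10000 reads the shares were 15.0% ± 1.2 and 23.7% ± 4.2 for Tnf and 6.36% ± 1.34 and 13.3% ± 2.4 for Il6. A microglial cell with a read of either cytokine held at least 9 reads of it, so thinning seldom turned it into one without. The thinned shares therefore cannot show what equal depth would give.

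The chemokines Ccl3 and Ccl4 went the other way. Both draw in T cells and monocytes, and they rose by 1.09 (SE 0.16, adjusted p = 0.00266, edgeR) and 0.99 (SE 0.14, adjusted p = 0.00231) on the log2 scale in microglia with both Apoe and Cst7. Of 15 cytokines and chemokines tested, 4 rose and 3 fell, shares near the 23.0% higher and 21.3% lower of all 305 genes. Besides Ccl3 and Ccl4 the risers were Il1b, the inflammasome-processed interleukin, by 1.60 and Csf1, a growth factor of microglia, by 2.60. The fallers were Ccl2, the monocyte attractant, which fell by 1.72, Il1a, which fell by 0.86, and Il18, which fell by 0.40. Of the 7 TNF superfamily ligands tested only Tnfsf13 (APRIL, a B cell factor) passed, and it rose by 0.62. With library size alone it stood at 0.12 (adjusted p = 0.648, edgeR).

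Genes upstream and downstream of the 2 cytokines were counted in the same cells, against the 21.3% of all 305 genes tested that were lower and the 23.0% that were higher. Of 13 receptors and signal carriers of TNF and IL-6, 7 fell and none rose, and their median was -0.50. The TNF receptor Tnfrsf1b fell by 0.85, the IL-6 receptor Il6ra fell by 0.94, caspase 8 (Casp8) fell by 0.96, the kinase Mapk8 fell by 0.74, the survival factor Birc3 fell by 0.65, the kinase Tyk2 fell by 0.43 and Stat3, the transcription factor of IL-6 signaling, fell by 0.36. Of 13 genes of the toll-like receptor arm 6 fell and 2 rose. Tlr3 and Tlr4 each fell by 0.85, the adaptor Myd88 fell by 0.76, Nod1 fell by 0.50, the adaptor Ticam1 fell by 0.47 and the TLR4 partner Ly96 fell by 0.40, while Tlr2 rose by 0.61 and Cd14, the co-receptor for lipopolysaccharide, by 0.41, the sign of Cd14 depending on the scaling. Of 10 immediate early and early response genes 9 fell and none rose, with a median of -0.87. The largest falls among them were Egr1, which fell by 1.44, Junb, which fell by 0.99, and Jun, which fell by 0.96, followed by Fosb, which fell by 0.89, Dusp2, which fell by 0.85, Btg1, which fell by 0.72, Dusp1, which fell by 0.59, Ier3, which fell by 0.57, and Myc, which fell by 0.47. The highest adjusted p among the genes named in the 5 lists was 0.0438, for Ly96 and Dusp2 (edgeR). With library size alone, where the median of all genes lay at -0.61, Cd14 stood at -0.10 (adjusted p = 0.486, edgeR) and Tlr2 at 0.11 (adjusted p = 0.463).

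Microglia with both Apoe and Cst7 were also split by a read of Cx3cr1, in a comparison chosen after seeing the data. Tnf was read in 17.1%, 16.5%, 14.8% and 16.6% of those with Cx3cr1 in Abi3-/- mice 1 and 2 and Abi3+/+ mice 1 and 2, and in 4.84%, 6.61%, 5.38% and 13.1% of those without it. Il6 was read in 8.03%, 7.81%, 5.68% and 5.63% with Cx3cr1 and in 3.23%, 4.28%, 3.08% and 4.5% without it. All 4 mice were lower without Cx3cr1 for both genes, by 8.78 percentage points (SD 3.70) for Tnf and 3.02 (SD 1.55) for Il6, each with exact sign-flip p = 0.125. This direction was common, since 66.8% of 202 genes were lower without Cx3cr1 in all 4 mice, and the median depth was 23959 reads per cell without Cx3cr1 against 30953 with it. After thinning to 10000 reads per cell the differences were 8.65 and 3.12 percentage points, but thinning seldom removed all reads of a cytokine from a cell, so the part of depth was not tested. Abi3+/+ mouse 2 stood apart for Tnf, with 13.1% of its cells without Cx3cr1.

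Reads of Fosb and Egr1 ran with more Tnf and, less firmly, with more Il6. Tnf was read in 15.4%, 28.6%, 22.5% and 27.8% of microglia with both genes in Abi3-/- mice 1 and 2 and Abi3+/+ mice 1 and 2, and in 12.0%, 8.86%, 9.08% and 8.03% of microglia with neither. Il6 was read in 11.9%, 14.6%, 9.91% and 12.7% with both and in 7.55%, 8.33%, 5.03% and 7.27% with neither. The shares did not overlap for either gene, but that held in this direction for 37.4% of the 203 genes compared, and 61.6% of them were higher in all 4 mice, so the direction alone is common on this axis. The mean difference was 14.1 percentage points for Tnf and 5.22 for Il6, each with exact sign-flip p = 0.125 over 4 mice. In Abi3-/- mouse 1 the Tnf difference was small against the other 3 mice.

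Summed reads gave the same order. Tnf was higher in cells with both Fosb and Egr1 by 1.23 on the log2 scale (SE 0.29, adjusted p = 0.0415, edgeR) and Il6 by 0.54 (SE 0.12, adjusted p = 0.0354). At this threshold 8.20% of the 305 genes were higher and 11.8% lower, and with library size alone the split of calls moved from 25 higher and 36 lower to 67 and 36. Both calls were near the threshold. They were lost after thinning to 10000 reads (adjusted p = 0.0506 for Tnf and 0.05001 for Il6, edgeR), the Tnf call was lost without Abi3-/- mouse 2, Abi3+/+ mouse 1 or Abi3+/+ mouse 2 (adjusted p = 0.128, 0.150 and 0.177), and the Il6 call without any 1 of the 4 mice (0.0628 to 0.184). The number of genes called fell from 61 to 28, 14 and 13 without Abi3-/- mouse 2, Abi3+/+ mouse 1 and Abi3+/+ mouse 2. Microglia with Egr1 but no Fosb had a Tnf share of 27.3% ± 4.8 (SD, n = 4), which overlaps that of cells with both genes (23.6% ± 6.1), against 17.0% ± 3.1 in the 485 cells with Fosb but no Egr1. For Il6 these shares were 12.2% ± 2.0 and 9.04% ± 2.97.

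The same lists were counted along this axis, against the 8.20% of all 305 genes tested that were higher and the 11.8% that were lower. Of 14 cytokines and chemokines tested, 2 were higher and 1 lower. Ccl2 and Il1a each rose by 1.04 and Csf1 fell by 1.25, while Ccl3 and Ccl4 had differences of -0.15 (SE 0.13) and -0.08 (SE 0.09) that did not pass. Of 13 receptors and signal carriers, Casp8 rose by 0.54 and Il6ra by 0.49. Of 13 genes of the toll-like receptor arm, Tlr4 rose by 0.71. None of 6 TNF superfamily ligands passed. Of the 10 immediate early and early response genes 9 rose, among them Fosb and Egr1, which define the comparison. The other 7 were Dusp1, a phosphatase of MAP kinases, by 3.03, Dusp2 by 2.52, Junb by 2.39, Jun by 2.33, Ier3 by 1.37, Btg1 by 1.16 and Myc by 0.90. The highest adjusted p among these named genes was 0.0491, for Il6ra (edgeR).

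Since microglia with both Apoe and Cst7 often lacked Fosb and Egr1, the 2 axes were crossed. Among cells with neither Fosb nor Egr1, Tnf was read in 9.59%, 6.21%, 4.72% and 4.97% of microglia with both Apoe and Cst7 and in 16.9%, 10.6%, 12.1% and 11.1% of those with neither. Among cells with both Fosb and Egr1 the corresponding shares were 18.8%, 23.4%, 25.5% and 28.7%, and 12.1%, 31.3%, 22.1% and 26.6%. The gap of Apoe and Cst7 in Tnf was thus seen in 4 of 4 mice without the immediate early pair and in 1 of 4 with it. In summed reads the difference for Tnf was -1.55 (SE 0.22, adjusted p = 0.00283, edgeR) without the pair and -0.20 (SE 0.33, adjusted p = 0.693) with it. For Il6 it passed in both, at -1.30 (SE 0.40, adjusted p = 0.0475) and -1.12 (SE 0.33, adjusted p = 0.0278). In these fits 40 of 273 genes were lower and 50 higher without the pair, and 42 of 268 lower and 44 higher with it. Il6 shares were 4.79%, 4.88%, 3.83% and 4.35% with both Apoe and Cst7 and 12.7%, 14.0%, 5.34% and 13.1% with neither, when Fosb and Egr1 were both without a read. With both Fosb and Egr1 they were 8.04%, 11.2%, 6.71% and 9.02%, and 19.2%, 16.2%, 11.4% and 12.2%.

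Seen from the other side, the Fosb and Egr1 difference in Tnf was 1.94 (SE 0.26, adjusted p = 0.00108, edgeR) among microglia with both Apoe and Cst7 and 0.48 (SE 0.41, adjusted p = 0.696) among those with neither. The Il6 differences were 0.46 (SE 0.39) and 0.15 (SE 0.26), and neither passed. Calls were rarer for all genes in the second fit. With both Apoe and Cst7, 29 of 274 genes were higher and 27 lower, and with neither 10 of 253 were higher and 2 lower. Whether the Fosb and Egr1 difference itself depended on Apoe and Cst7 was then tested in 1 edgeR model over 4 sums per mouse, a comparison added after seeing the data. For Tnf the difference of differences was 1.07 (SE 0.55, unadjusted p = 0.0741, adjusted p = 0.503), and for Il6 0.14 (SE 0.46, adjusted p = 0.967). In that model 0% of the 276 genes passed and 28 had an unadjusted p under 0.05. Without Abi3-/- mouse 1 the Tnf value was 1.23 with an adjusted p of 0.0371, and without each of the other mice it did not pass, so a dependence was not shown with all 4 mice.

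**Figure D3:**
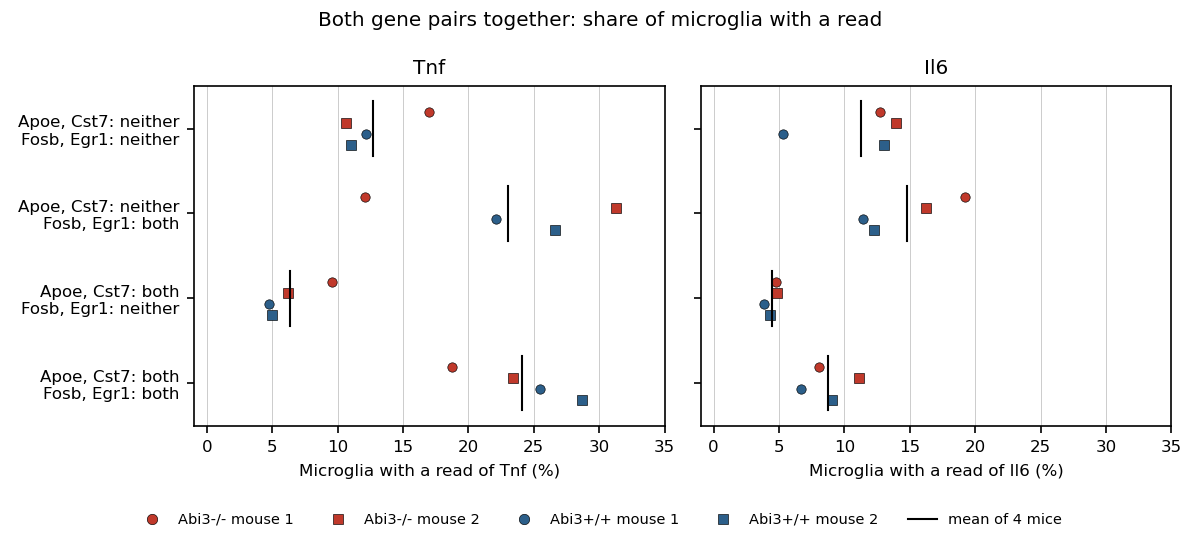
Share of microglia with a read of Tnf (left) and Il6 (right), in percent, in the 4 combinations of both or neither of Apoe and Cst7 with both or neither of Fosb and Egr1. Each point is 1 mouse and the bar is the mean of 4. Tnf is lowest with both Apoe and Cst7 and neither Fosb nor Egr1, at 4.72% to 9.59%, and Il6 is lowest in the same cells, at 3.83% to 4.88%.

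Tnf was detected in the same cells as Ccl3 and Ccl4 more often than in other microglia. Ccl3 was read in 45.9%, 55.0%, 46.6% and 50.3% of microglia with a read of Tnf in Abi3-/- mice 1 and 2 and Abi3+/+ mice 1 and 2, and in 28.8%, 41.4%, 34.6% and 34.7% of those without. Ccl4 was read in 40.1%, 45.3%, 46.0% and 45.8% with Tnf and in 25.1%, 29.3%, 29.9% and 28.1% without. The mean differences were 14.6 percentage points (SD 2.3) for Ccl3 and 16.2 (SD 1.1) for Ccl4, each in 4 of 4 mice with exact sign-flip p = 0.125, and the odds ratios were 1.65 to 2.10 and 2.0 to 2.17. Cells with Tnf also had more reads in all, and 65.7% of 204 genes were more frequent in them in all 4 mice. After thinning to 10000 reads the differences were 14.1 and 16.0 percentage points. Thinning seldom removed all reads of a gene from a cell, so these values cannot show the part of depth. In Abi3-/- mouse 1, cells with both Tnf and Ccl3 numbered 151 before and 151 after it. For scale, Ccl4 was read in 55.0% ± 3.7 of microglia with Ccl3 and 17.1% ± 1.1 of those without (SD, n = 4).

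With Il6 the differences were smaller in the kept microglia. Ccl3 was read in 27.1%, 40.3%, 32.5% and 39.1% of microglia with a read of Il6 and in 32.1%, 44.9%, 37.6% and 38.5% of those without, a mean difference of -3.50 percentage points (SD 2.73) that was below 0 in 3 of 4 mice (exact sign-flip p = 0.25). Ccl4 was read in 28.6%, 35.5%, 31.9% and 33.0% with Il6 and in 27.5%, 32.4%, 33.4% and 32.4% without, a difference of 0.825 (SD 1.88, p = 0.5 in the same exact test). Over all cells, with no limits on genes or reads, the Ccl3 difference with Il6 turned to 1.06 percentage points (exact sign-flip p = 0.375) and the Ccl4 difference was 5.44, above 0 in 4 of 4 mice (exact sign-flip p = 0.125). At the same time 44.1% of 204 genes were more frequent in microglia with Il6 in all 4 mice. Tnf and Il6 themselves overlapped weakly. Il6 was read in 11.6%, 15.2%, 9.93% and 12.3% of microglia with Tnf and in 10.3%, 11.6%, 9.21% and 10.0% of those without, a difference of 1.96 percentage points (SD 1.27) that was above 0 in 4 of 4 mice (exact sign-flip p = 0.125) and 3.01 over all cells. Cells with both cytokines numbered 38, 138, 74 and 90, with odds ratios of 1.09 to 1.36.

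The pairing of Tnf with Ccl3 and Ccl4 was present inside each state. Among microglia with neither Apoe nor Cst7, Ccl3 was 19.2 percentage points (SD 1.9, n = 4) and Ccl4 18.4 (SD 2.6) more frequent with Tnf than without it. Among microglia with both genes, where Ccl3 was read in 60.8% ± 12.1 of cells even without Tnf, the differences were 10.3 (SD 3.5) and 14.7 (SD 2.8). With both Fosb and Egr1 they were 12.3 (SD 3.0) and 12.3 (SD 5.2), and with neither 15.3 (SD 8.4) and 23.3 (SD 5.3). All of these were above 0 in each mouse, although Ccl3 and Ccl4 rose with Apoe and Cst7 and Tnf fell. Cells were not thinned here. Over all microglia 65.7% of 204 genes were more frequent with Tnf in all 4 mice, and no such share is given within states. For Il6 the differences in Ccl3 lay between -3.91 and 0.191 in the 4 states and changed sign between mice in each. Il6 with Ccl4 was above 0 in each mouse only in microglia with both Apoe and Cst7, by 8.33 (SD 5.74, 0.580 to 13.4). Il6 with Tnf was above 0 in all 4 mice in none of the 4 states. The mean difference was 4.32 percentage points with both Apoe and Cst7 (-0.157 to 7.16 over mice), -0.68 with neither (-3.69 to 2.81), 0.322 with both Fosb and Egr1 (-3.31 to 2.02) and 4.23 with neither (-0.454 to 9.92).

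**Figure D4:**
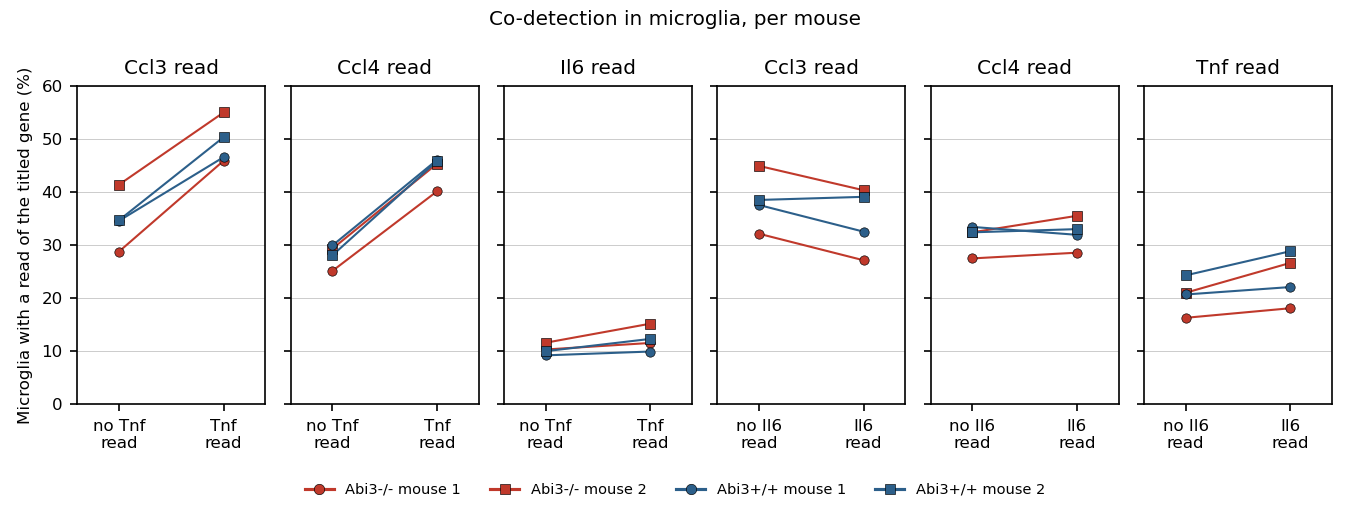
Share of microglia with a read of the gene named above each panel, in percent, among cells without and with a read of Tnf (left 3 panels) or of Il6 (right 3 panels). Each line is 1 mouse. All lines rise for Ccl3 and Ccl4 with Tnf, while those for Ccl3 with Il6 fall in 3 of 4 mice.

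The panel genes most like each cytokine in where they were detected were ranked by the phi coefficient, a correlation of 2 yes-or-no readings, among microglia thinned to 10000 reads and as a mean over 4 mice. There were 187 genes with a read in 1% to 99% of these cells in every mouse, and the coefficients share their cells and libraries, so they are given as a description. Nearest to Tnf were Ier3, an early response gene of NF-kappaB signaling, at 0.185 ± 0.044 (SD, n = 4), Ccl2 at 0.163 ± 0.028, Egr1 at 0.159 ± 0.054 and Jun at 0.157 ± 0.061. Junb followed at 0.146, Ccl4 at 0.140, Dusp1 at 0.125 and Ccl3 at 0.119. The first ranged from 0.145 to 0.236 over mice, which is wider than the gap between the first and the last of these means, so their order is not resolved.

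Nearest to Il6 were Jun at 0.0811 ± 0.0104, Egr1 at 0.0704 ± 0.0173, Il1a at 0.0689 ± 0.0257 and Cd300a, an inhibitory receptor of myeloid cells, at 0.0593 ± 0.0117. Junb followed at 0.0575, Icam1, an adhesion molecule, at 0.0561 and Btg1, an antiproliferative gene, at 0.0546. All of these are weak. Egr1, Jun and Junb stood in both lists, whereas Ier3, Ccl2, Dusp1, Ccl3 and Ccl4 stood only in the list of Tnf. Apoe and Cst7 closed both rankings, at -0.0622 and -0.0636 with Tnf and at -0.0665 and -0.0691 with Il6.

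**Figure D5:**
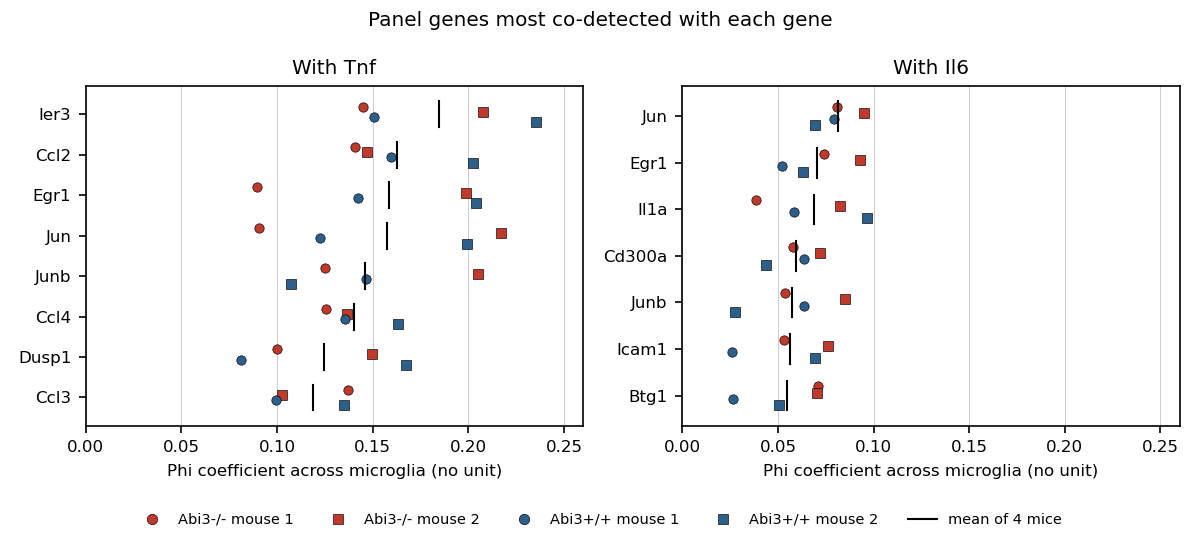
Phi coefficient (no unit) between detection of Tnf (left) or Il6 (right) and the panel genes named here as nearest to it, across microglia thinned to 10000 reads. Each point is 1 mouse and the bar is the mean of 4. Coefficients with Tnf reach 0.236 and those with Il6 stay below 0.1.

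Between genotypes neither gene differed beyond the spread of 2 mice each. The Tnf share of all microglia was 16.5% and 21.7% in Abi3-/- and 20.8% and 24.8% in Abi3+/+, a difference of -3.70 percentage points, and the Il6 share was 10.5% and 12.4% against 9.36% and 10.6%, a difference of 1.48. Without 1 mouse these differences ranged from -6.32 to -1.09 and from 0.552 to 2.41. The genotypes overlapped for both genes, while 48.3% of 205 genes had shares that did not overlap between 2 and 2 mice. An exact permutation test gave p = 0.667 for each, and 2 mice against 2 cannot give less than 0.333. In summed reads Tnf differed by -0.44 on the log2 scale (SE 0.37, adjusted p = 0.879) and Il6 by 0.17 (SE 0.18, adjusted p = 0.924) by edgeR. The same test called 0% of 321 genes, with 24 at an unadjusted p under 0.05, and DESeq2 called 37 genes, among them neither Tnf (adjusted p = 0.540) nor Il6 (0.749). None of the members of the 5 lists was called by edgeR. With library size alone the Il6 difference in summed reads turned to -0.029. Library and mouse cannot be told apart here.

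The states themselves were unevenly spread over the genotypes. Microglia with both Apoe and Cst7 made up 32.4% and 33.4% of microglia in the Abi3-/- mice against 17.4% and 19.6% in the Abi3+/+ mice, and those with both Fosb and Egr1 21.5% and 27.3% against 45.4% and 43.1%. Their part in the genotype values of all microglia was not tested. Shares within states, a comparison added after seeing the data, were as follows. Within microglia with both Apoe and Cst7 the mean Tnf share was 15.3% in Abi3-/- and 14.0% in Abi3+/+, and within microglia with neither 21.6% and 24.7%, with overlap in both. The Il6 share was higher in both Abi3-/- mice than in either Abi3+/+ mouse among cells with both genes (means 7.37% and 5.17%) and among cells with neither (14.8% and 11.2%). The same was so for 50.2% of 203 genes in cells with both and for 25.6% in cells with neither. In the crossed states the Tnf shares given above did not overlap between genotypes in 2 of 4. With both Apoe and Cst7 and both Fosb and Egr1 the means were 21.1% in Abi3-/- and 27.1% in Abi3+/+, and 9.95% of 201 genes were lower in this way. With both Apoe and Cst7 and neither Fosb nor Egr1 they were 7.90% and 4.84%, and 48.8% of 201 genes were higher in this way. Il6 was higher without overlap in the latter state too (4.84% and 4.09%), in cells with neither Apoe nor Cst7 and both Fosb and Egr1 (17.7% and 11.8%), where 30.3% of 201 genes were, and in microglia with neither Fosb nor Egr1 (7.94% and 6.15%), where 41.8% were. The Il6 shares overlapped between genotypes in microglia with both Fosb and Egr1 (means 13.3% and 11.3%). They also overlapped in the crossed states with both of each pair (9.59% and 7.86%) and with neither of each pair (13.3% and 9.20%). With 2 mice a side these within-state gaps cannot reach significance in an exact test.

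The state differences were also compared between genotypes. The interaction of genotype with Apoe and Cst7 was 0.36 for Tnf (SE 0.27, adjusted p = 0.687, edgeR) and -0.11 for Il6 (SE 0.38, adjusted p = 0.996), where 0.984% of 305 genes passed. The interaction with Fosb and Egr1 was -0.85 for Tnf (SE 0.45, adjusted p = 0.365) and -0.09 for Il6 (SE 0.21, adjusted p = 0.934), where 0.656% of 305 genes passed. No gene of the 5 lists passed in either. The Tnf interactions moved with single mice. Both missed the threshold with all 4 mice. The first was 0.74 without Abi3-/- mouse 2 and the second -0.98 without Abi3+/+ mouse 1. In each of these fits 1 genotype is left with a single mouse, which is assumed to vary like the others.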

How the data were processed

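Whole cells of 4 right hemispheres (2 Abi3-/- and 2 Abi3+/+ male 5XFAD mice) were profiled with a targeted immune panel on BD Rhapsody. The authors ran the BD Rhapsody Targeted Analysis Pipeline at default settings and the deposited tables give counts of reads for each gene in each cell, whole numbers that the pipeline had adjusted for sequencing and PCR errors, with mm10 named in the submitters' processing notes. The pipeline's version is not given in the sources used here. Counts are reads, not molecules, so all intervals cover counting error only. Doublets were limited by the read maximum alone, and the lower limit was applied here to genes with a read.

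Members and gene lists were chosen with earlier results of these data known. Cells were clustered without Tnf, Il6, Ccl3 and Ccl4 (Seurat 5.3.0, R 4.3.3, log-normalization to 10000 reads, 10 principal components, resolution 0.8) and named from marker genes, with naming thresholds set after the marker values were seen; a cluster led by MHC class II genes and 1 with markers of 2 types stayed unnamed. Since clusters were rebuilt, differences from the study's own clusters may come from that. Reads were summed per mouse and class and tested with edgeR 4.0.16 (filterByExpr, TMM, quasi-likelihood test, Benjamini-Hochberg over all genes tested, threshold 0.05), with mouse as block between classes. The SE is the log2 difference over the root of F. Shares were compared per mouse by 2-sided exact tests. Named genes are Tnf, Il6, Ccl3, Ccl4, the 4 state genes, the 8 genes with the highest phi for each cytokine (1 of them is not reported here) and the members of 5 lists past the threshold. Alternatives were DESeq2 1.42.0, library size scaling, no filter on low counts, all cells, thinning to 10000 reads (26, 288, 181 and 64 cells were too shallow), a minimum of 10 reads, types from marker reads, no mouse block, and each mouse left out. No pair of libraries held identical counts. Whether mice differ by culture or day is not stated, so p-values measure the spread between these 4 libraries.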

Additional observations from a re-analysis of the deposited data

Results flagged for a closer look

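Some cells outside the comparisons held reads of the 2 genes above the level that a count of 0 would allow. Of the 1678 cells over the read limit of 59300, 27.4% had a read of Tnf and 15.5% a read of Il6, at a median of 87194 reads per cell. Of the 5674 cells under the minimum of 40 genes, 0.370% had a read of Tnf and 0.106% a read of Il6, at a median of 2399.5 reads.

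The unnamed cluster led by MHC class II genes, of whose 262 cells 177 came from Abi3-/- mouse 1, had Tnf in 16.4% and Il6 in 9.92% of cells. The 52 cells with markers of 2 types had Tnf in 23.1% and Il6 in 17.3%, and their part in any doublet was not tested. Among 114 neutrophil-like cells Tnf was read in 5.26% (6 cells, exact 95% interval 1.96% to 11.1%), below the share with a read of C1qa in the same cells (13.2%).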

How the results depend on the processing

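The fall of both cytokines with Apoe and Cst7 kept its direction under the other settings run, and its call too, except for Tnf among microglia with both Fosb and Egr1 (-0.20); without 1 mouse it ranged from -1.02 to -0.82 for Tnf and -1.19 to -1.03 for Il6. The rise with Fosb and Egr1 was the least firm. Tnf was 0.98 after thinning and 0.48 among microglia with neither Apoe nor Cst7, neither past the threshold, and 0.92 to 1.58 without 1 mouse. Il6 lost its call without the low-count filter (0.44), with no replicate block (0.45), after thinning (0.48), among microglia with both (0.46) or neither (0.15) of Apoe and Cst7, and without any 1 mouse (0.42 to 0.55). The cause was not tested, except that each state subset and each left-out mouse has fewer cells or samples.

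In macrophage or monocyte-like cells the Tnf difference was -3.40 with types from marker reads, no longer called, and -2.90 to -2.02 without 1 mouse. The edgeR adjusted p of Il6 there was 0.0950 with no replicate block and 0.0521 to 0.111 without 1 mouse. In T cells it was 0.0686 over all cells and 0.0444 to 0.0650 without 1 mouse, where Tnf ranged from -3.86 to -3.03.

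The genotype difference of Il6 was -0.029 with library size alone, and without 1 mouse it was 0.06 to 0.22, with -0.86 to -0.11 for Tnf. Same-numbered mice of the 2 genotypes deviated together (r = 0.383 across 321 genes), but with 2 pairs the number marks no shared animal or day. A replicate block left the number of genes called at 0 and Tnf and Il6 at -0.46 and 0.16 (adjusted p = 0.399 and 0.738, edgeR). The interaction with Apoe and Cst7 for Il6 was 0.063 with library size alone and 0.16 after thinning. Without 1 mouse it was -0.43 to 0.28 for Il6 and 0.047 to 0.74 for Tnf. With Fosb and Egr1 the Il6 interaction was 0.064 without the filter, 0.042 with DESeq2, 0.036 over all cells and 0.070 after thinning. Without 1 mouse it was -0.11 to 0.041 for Il6 and -1.38 to -0.20 for Tnf. In the fits without 1 mouse a genotype holds a single mouse, assumed to vary like the others. The settings of the interactions and the crossed test were chosen after seeing the data. The crossed test gave 0.95 to 1.31 for Tnf and -0.20 to 0.69 for Il6. Over all cells Ccl3 was 1.06 percentage points more frequent with Il6, against -3.50 in the kept microglia, and Ccl4 5.44 against 0.825. All share differences between states and for Tnf with Ccl3 and Ccl4 kept their direction under the alternatives run, with the smallest gaps between Apoe and Cst7 states over all cells (-5.03 percentage points for Tnf and -3.21 for Il6), and the exact tests could not pass at this n.

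Counts of genes called moved from 135 to 86 for Apoe and Cst7 among microglia with both Fosb and Egr1 (88 to 141 without 1 mouse), and from 61 for Fosb and Egr1 to 103 with library size alone, 145 with DESeq2, 39 with no replicate block and 12 among microglia with neither Apoe nor Cst7 (13 to 77 without 1 mouse). They were 105 to 120 in macrophages and 143 to 180 in T cells without 1 mouse. For genotype edgeR called 0 with all mice and 0 to 1 without 1 mouse, and DESeq2 called 37 with all mice. For the interactions DESeq2 called 40 against 3 and 87 against 2 by edgeR, with edgeR calling 0 in the first with library size alone, all cells, thinning or types from marker reads and in the second over all cells (0 to 47 and 0 to 17 without 1 mouse); the crossed test called 0 to 4.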
